A study of Mus musculus with 12 samples.

Results

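The type I interferon stimulated genes examined here are 38 genes listed by symbol for their known function. The rule itself uses no measured value, but the list was chosen with earlier results of these data known, so the choice is not independent of them. All 38 were found by Ensembl identifier among the 47643 identifiers of both tables. The Mϕ came from adult female C57BL/6 mice, for which the labels name no modified allele. Every mouse was injected i.p. with zymosan A (5 mg/kg), a yeast cell wall preparation that causes a self-limiting peritonitis. From day 1 on, mice were then dosed once a day with compound III (CIII, 25 mg/kg), an inhibitor of the prostaglandin E synthase mPGES-1, or with vehicle (VEH). Peritoneal Mϕ were sorted at day 6 as F4/80lo Mϕ (CD45+ CD11b+, low for F4/80 and MerTK, high for MHC class II) or F4/80hi Mϕ (CD45+ CD11b+, high for F4/80 and MerTK). By the study's gating scheme, CD11c+ MHC class II+ dendritic cells were set aside first, and Ly6G+ neutrophils were removed from the cells low for F4/80 and MerTK. There were 3 libraries each of VEH F4/80lo, CIII F4/80lo, VEH F4/80hi and CIII F4/80hi Mϕ, 12 in all, each a 3′ mRNA library with unique molecular identifiers. No library from a mouse without zymosan was analysed here. The sources used here do not say whether mice were pooled, and where they do not, p-values measure the spread between libraries only.

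Type I interferons are the cytokines IFN-β and the IFN-α family, which signal through the receptor pair IFNAR1 and IFNAR2. The kinases JAK1 and TYK2 then act on a transcription factor complex that holds STAT2 and IRF9 and binds interferon-stimulated response elements (ISRE) in the promoters of target genes. These targets include effectors that bind or degrade viral RNA, sensors of foreign nucleic acid, the ISG15 conjugation system and the transcription factors of the pathway itself. Mϕ both sense microbes and answer interferon, and many of the same genes also answer IFN-γ.

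Promoter stretches with ISRE-like letters are shown because this element is the known binding site of the pathway, and not every target examined held it. The motif searched was GAAANNGAAA on either strand, in the 250 bases before each RefSeq start site (GRCm38.p6). Promoter windows were given for 28 of the 38 genes, and 12 of these 28 (42.9%) held the motif, beside 936 of 27025 genes with a window (3.46%). Among genes of the IFN-γ list it was 11 of 16 genes (68.8%), and among those of interferon production and signaling 14 of 41 (34.1%). The stretches of the 7 genes described singly below that hold the motif follow, each from 5′ to 3′ on the strand of its gene, with all letters of a match in capitals. A run beginning TTTC is the motif on the opposite strand, and overlapping matches run into each other.
Bst2, chr8:71537567-71537622, minus strand: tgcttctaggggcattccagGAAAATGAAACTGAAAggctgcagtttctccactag
Ifit1, chr19:34640765-34640833, plus strand: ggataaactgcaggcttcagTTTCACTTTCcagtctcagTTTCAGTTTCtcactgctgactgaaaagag
Isg15, chr4:156200855-156200916, minus strand: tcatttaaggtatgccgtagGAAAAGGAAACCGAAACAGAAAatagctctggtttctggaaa
Oas1a, chr5:120907526-120907565, minus strand: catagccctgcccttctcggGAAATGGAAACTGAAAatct
Oas3, chr5:120777705-120777754, minus strand: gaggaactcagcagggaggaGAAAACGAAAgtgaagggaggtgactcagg
Rsad2, chr12:26456543-26456592, minus strand: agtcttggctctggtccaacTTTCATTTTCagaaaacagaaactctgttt
Trim30a, chr7:104465200-104465249, minus strand: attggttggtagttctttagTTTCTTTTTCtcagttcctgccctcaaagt
Isg15 held 3 overlapping matches, Bst2 and Oas1a held 2 overlapping ones, and Ifit1 held 2 separate ones. The other genes with a match were Ddx60, Ifit3, Ifit3b, Oas1g and Stat2. No window was given for Dhx58, Ifi204, Mx1, Mx2, Oas2, Parp14, Rtp4, Tor3a, Usp18 and Zbp1. A match describes the letters of the window only.

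The libraries held 426624 to 3389448 reads on genes, and the 3 reads that 0 counts still allow come to 0.885 to 7.03 reads per 1000000 reads on genes (RPM), for counting error only. Values are the deposited normalized counts, which the authors scaled by 1 factor per library and separately for each subpopulation, and they are given in the order of replicate numbers 1, 2 and 3. The libraries numbered 3 stood apart from the others. In F4/80hi Mϕ, Gata6, the transcription factor of resident peritoneal Mϕ, was at 33.2, 47.03 and 2.096 in VEH and 20.9, 34.9 and 5.47 in CIII, and Ccr2, the chemokine receptor of monocytes, at 50.5, 18.3 and 1321 in VEH and 276, 105 and 672 in CIII. The 8 resident Mϕ markers summed to 3855 and 5464 RPM in VEH F4/80hi libraries 1 and 2 and to 152 in library 3, and to 3518, 3755 and 578 in CIII. These markers were thus low in both F4/80hi libraries numbered 3. Adgre1, which encodes F4/80, was at 366 (VEH) and 368 RPM (CIII) there, between the other F4/80hi libraries (1064 to 1336) and the F4/80lo libraries numbered 3 (248 and 205), and below the highest F4/80lo library (381). Mertk overlapped between the subpopulations, with 169 to 434.6 RPM in the F4/80hi libraries and 193 to 450.045 RPM in the F4/80lo ones. In F4/80lo Mϕ, sorted as MHC class II high, H2-Aa was at 4603, 4100 and 679.8 in VEH and 7750, 5496 and 5046 in CIII, lowest in VEH library 3. H2-Ab1, H2-Eb1, Cd74, Irf4, Retnla and Cx3cr1, also among the 10 markers of monocyte-derived Mϕ, were lowest there too. The 10 markers summed to 15700, 19550 and 4648 RPM in VEH and 28735, 16741 and 21113 in CIII F4/80lo libraries. Ccr2 and Ly6c2 of the same list lay otherwise. Ccr2 was at 913, 402 and 1557 in VEH and 1209, 551 and 2183 in CIII. It was highest in CIII library 3 and next in VEH library 3. The monocyte antigen gene Ly6c2 was at 26.8, 23.1 and 224 in VEH and 24.1, 66.2 and 68.5 in CIII. This gene was highest in VEH library 3. The rRNA-like transcript Gm42418 took 2.65 to 14.3% of reads in the libraries numbered 3 and at most 0.579% in the others. The labels do not say what the numbers stand for, so results are also given for numbers 1 and 2 alone.

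Markers of other cells were also summed. The 10 plasmacytoid dendritic cell markers, the cell type best known for making type I interferon, summed to 482 to 1003 RPM, of which Bst2, itself an interferon target, is a part. Tcf4, at 66.6 to 410 normalized counts, and Irf8, at 62.7 to 538, were the other abundant genes of this list. The next highest, Spib, reached at most 13.5. Siglech was at 0 in 10 of 12 libraries and Klk1 in all 12. The summed markers ranged from 23.1 to 126 RPM for neutrophils, from 0 to 202 for B cells, from 1.45 to 83.8 for T and NK cells, from 4.14 to 302 for conventional dendritic cells, from 0.573 to 16.9 for eosinophils and mast cells, and from 8069 to 28885 for Mϕ and monocytes. The 10 markers of monocyte-derived peritoneal Mϕ summed to 1311 to 28735 RPM and had median log2 fold changes of 1.02 over 10 tested in F4/80lo Mϕ and 1.49 over 9 tested in F4/80hi Mϕ, of which 2 and 3 were higher with an unadjusted p under 0.05 (limma), beside 1.08% and 1.29% of all genes. All 7 conventional dendritic cell markers tested in F4/80lo Mϕ were higher in CIII (45.9% of all genes), 2 with an unadjusted p under 0.05 (limma). Within number 2, however, 3 were higher and 4 lower (median -0.66). Their list summed to 157, 302 and 11.5 RPM in VEH and 234, 204 and 74.2 in CIII F4/80lo libraries, lowest in VEH library 3. Of the remaining markers other than Bst2, limma gave an unadjusted p under 0.05 for Mertk (higher in CIII) and the neutrophil gene S100a8 (lower) in F4/80hi Mϕ and for the T cell gene Trbc2 (higher) in F4/80lo Mϕ. S100a8 was at 39.9, 24.8 and 81.8 in VEH and 12.3, 6.01 and 13.7 in CIII F4/80hi Mϕ. Its log2 fold change was -2.00 ± 0.56 (limma unadjusted p = 0.00568, adjusted p = 0.992), the same direction as Bst2 below. All CIII values lay below all VEH values, as for 5.76% of all genes. Csf3r, the other neutrophil marker tested there, lay the other way (log2 fold change 0.25 ± 0.60, limma unadjusted p = 0.694). The gates described above set dendritic cells aside for both subpopulations and neutrophils for F4/80lo Mϕ. Their part in the results was not tested. In such bulk samples fewer cells with a transcript and less transcript per cell cannot be told apart.

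The interferon genes did not move together with CIII. Of the 38 genes, 37 entered the test in F4/80lo Mϕ (all but Ifit3b) and 35 in F4/80hi Mϕ (all but Ifit2, Ifit3b and Oas1g), the rest lying under a mean of 3 normalized counts. In F4/80lo Mϕ 15 were higher and 22 lower in CIII (45.9% of all genes were higher), and the median log2 fold change was -0.13 (-0.05 over all 10718 genes tested). Among the F4/80hi Mϕ 15 were higher and 20 lower (53.5% of all genes higher), with a median of -0.15 (0.05 over all 10499). At an adjusted p under 0.05, limma called 0 of them in either subpopulation, as did edgeR and DESeq2 on the recovered reads. At an unadjusted p under 0.05, limma called 2 in F4/80lo (Ifit1 and Usp18, both lower), and edgeR and DESeq2 called 0. For F4/80hi Mϕ each of the 3 tools called 1, Bst2, which was lower. Over all genes tested, 1.61% passed as lower and 1.08% as higher in F4/80lo Mϕ (173 and 116 genes), while 2.65% passed as lower and 1.29% as higher in F4/80hi Mϕ (278 and 135 genes). With every library given an equal total these became 129 lower and 158 higher genes for F4/80lo Mϕ, and 186 lower and 246 higher genes for F4/80hi Mϕ. A block for replicate number raised the interferon genes called to 4 in F4/80lo (6.89% of all genes) and 3 in F4/80hi Mϕ (11.3%), again 0 after adjustment.

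**Figure D1:**
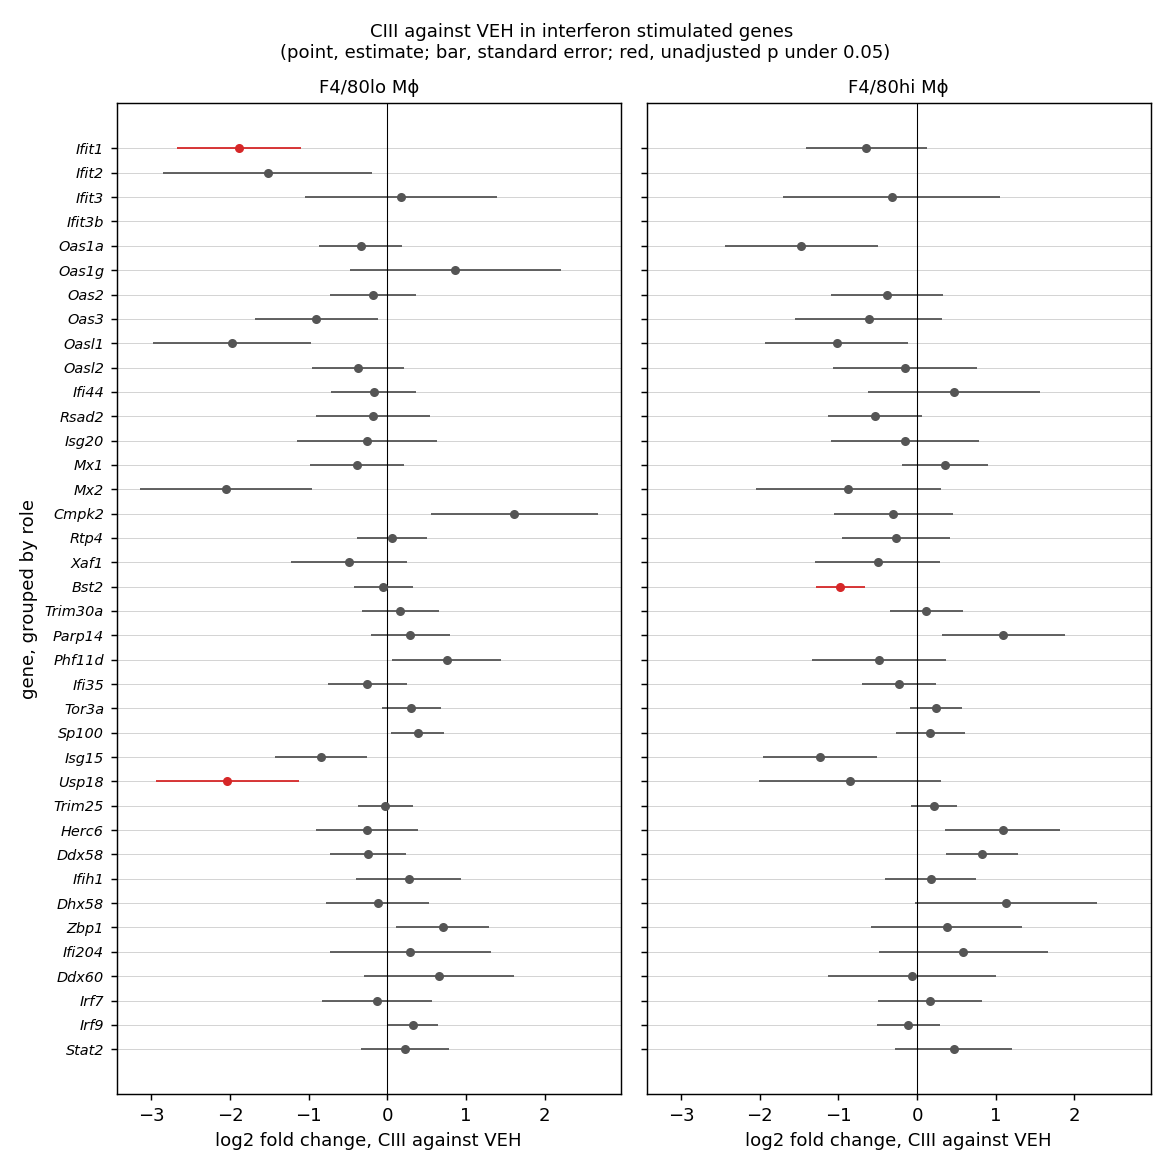
Log2 fold change of CIII against VEH (x axis, limma on log2 of the normalized count plus 1) for each tested interferon stimulated gene (y axis, by role) in F4/80lo Mϕ (left) and F4/80hi Mϕ (right), with bars for the standard error (3 libraries per group). Points in red have an unadjusted p under 0.05, which are Ifit1 and Usp18 on the left and Bst2 on the right.

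The direction of the difference between CIII and VEH turned with the replicate number. Within number 1, 33 of 37 genes were higher in CIII than in VEH in F4/80lo Mϕ (48.5% of all genes) and 32 of 35 in F4/80hi Mϕ (50.1%). Within number 3 the direction was the opposite, with 33 of 37 lower in CIII in F4/80lo (52.6% of all genes) and 33 of 35 in F4/80hi Mϕ (47.8%). Both held for 29 genes in F4/80lo (23.5% of all genes) and for 31 in F4/80hi Mϕ (21.7%). The median log2 difference between the CIII and the VEH library was 0.81, 0.01 and -0.97 within numbers 1, 2 and 3 of F4/80lo Mϕ, against 1.07, -0.11 and -1.12 within those of F4/80hi Mϕ. Over all genes these medians lay between -0.05 and 0.04.

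**Figure D2:**
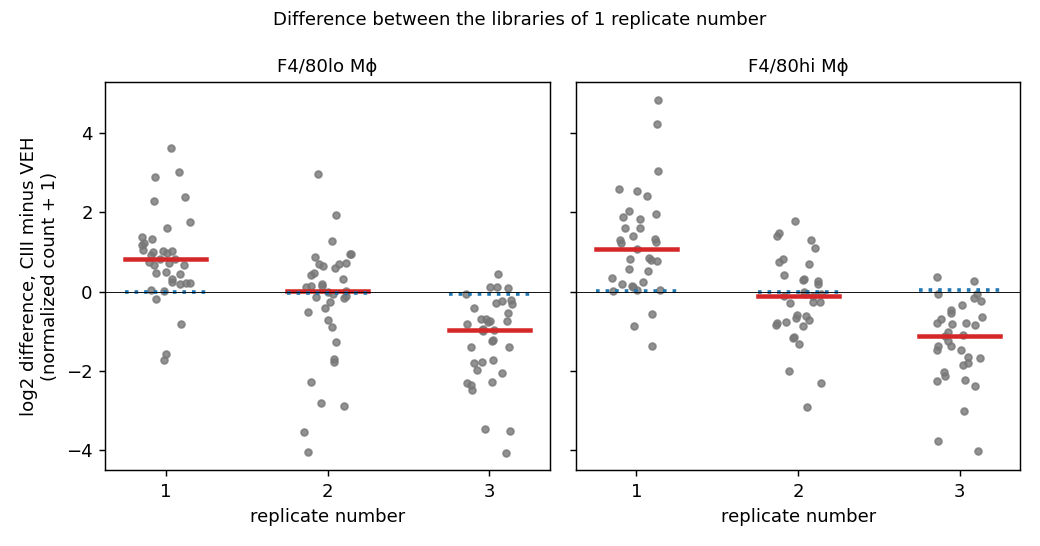
Difference in log2(normalized count + 1) between the CIII and the VEH library of each replicate number (x axis), with 1 point per interferon stimulated gene, 37 in F4/80lo (left) and 35 in F4/80hi Mϕ (right). The red line is their median and the dotted blue line the median of all genes tested, and the red medians go from 0.81 and 1.07 in number 1 to -0.97 and -1.12 in number 3 while the blue ones stay near 0.

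The VEH library 3 was the highest of the 6 libraries for 23 of 37 genes in F4/80lo (22.8% of all genes) and for 28 of 35 in F4/80hi Mϕ (18.3%). Summed over the 38 genes, the level was 1849, 2092 and 3800 in VEH and 3056, 2264 and 2524 in CIII F4/80lo libraries, in RPM. Among F4/80hi libraries it was 1379, 1715 and 3692 in VEH and 2455, 1663 and 2243 in CIII. VEH library 3 held the highest sum and VEH library 1 the lowest in both subpopulations. Without VEH library 3, the median log2 fold change turned to 0.38 in F4/80lo Mϕ and to 0.40 in F4/80hi Mϕ, and without CIII library 2 to 0.10 and 0.08. Without any other library it stayed negative, at -0.29, -0.34, -0.34 and -0.0029 in F4/80lo Mϕ without VEH 1, VEH 2, CIII 1 and CIII 3, and at -0.59, -0.19, -0.19 and -0.02 likewise in F4/80hi Mϕ. Leaving out VEH library 3, limma gave 6 genes as higher and 2 as lower in F4/80lo at an unadjusted p under 0.05 (2.8% and 3.44% of all genes). For F4/80hi Mϕ it gave 6 as higher and 1 as lower (5% and 4.88%). The 6 higher in F4/80lo were Cmpk2, Ddx60, Parp14, Phf11d, Stat2 and Zbp1, and the 6 in F4/80hi Mϕ were Ddx58, Herc6, Ifi204, Parp14, Stat2 and Zbp1. Their adjusted p values ran from 0.474 to 0.789. With numbers 1 and 2 alone, 25 of 37 genes were higher in CIII in F4/80lo (median 0.44) and 25 of 35 in F4/80hi Mϕ (median 0.37). Over all genes it was 5066 of 10718 in F4/80lo (median -0.04) and 5410 of 10499 in F4/80hi Mϕ (median 0.03). VEH library 3 was also the deepest F4/80lo library and held the most Gm42418 of its subpopulation in both, and the part of these in the result was not tested.

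**Figure D3:**
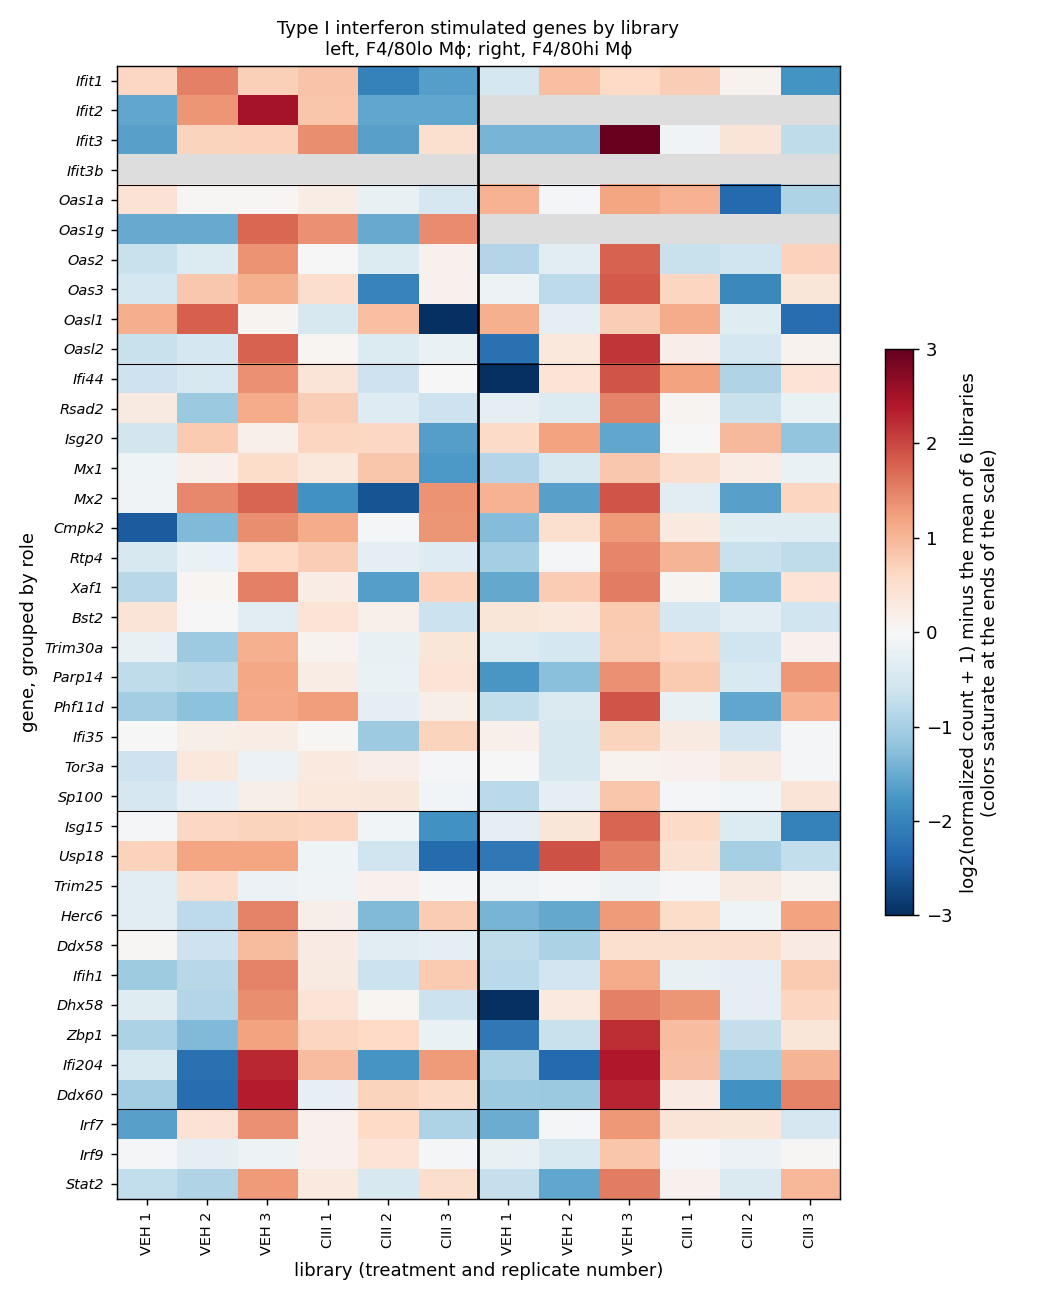
Level of each interferon stimulated gene (rows, by role, with lines between roles) in each library (columns, 6 F4/80lo libraries left and 6 F4/80hi libraries right), as log2(normalized count + 1) minus the gene's mean over the 6 libraries of its subpopulation. Grey marks genes not tested, and the third VEH column on each side is the darkest red, being the highest of 6 libraries in 23 of 37 and 28 of 35 genes.

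Among the RNA-binding IFIT proteins, Ifit1 (ENSMUSG00000034459, chr19:34640871-34650009), which binds viral RNA that lacks the host's cap methylation, was at 19.8, 37.2 and 20.98 in VEH and 23.4, 2.28 and 3.32 in CIII F4/80lo Mϕ. CIII libraries 2 and 3, with 1 and 3 reads, lay below every VEH library, while CIII library 1 lay among them. The log2 fold change was -1.89 ± 0.79 (SE, limma unadjusted p = 0.0351, adjusted p = 0.9996), and it was -1.65 with numbers 1 and 2 alone (limma unadjusted p = 0.133). Ifit1 passed at an unadjusted p under 0.05 without CIII library 1 (-2.78) or VEH library 3 (-2.01), but not without any of the other 4 libraries. Its F4/80hi values overlapped, at 6.65, 19.6 and 15.7 in VEH and 17.3, 10.8 and 2.19 in CIII, with a log2 fold change of -0.64 ± 0.77 that turned to 0.23 with numbers 1 and 2 alone. Ifit2, which binds Ifit1, was at 0, 6.42 and 15.7 in VEH and 4.26, 0 and 0 in CIII F4/80lo Mϕ, with 0 in VEH library 1 and in 2 CIII libraries. Ifit3 was about as scarce, at 0, 3.85 and 3.997 in VEH and 7.09, 0 and 3.32 in CIII in F4/80lo Mϕ and 0, 0 and 24.1 in VEH and 1.44, 2.404 and 0.547 in CIII in F4/80hi Mϕ. Ifit3b was at 0 in all F4/80hi libraries. In the last 500 bases of its transcript, where these libraries are read, Ifit3 shares 14.9% of its 50-base words with Ifit3b, so reads of this pair are uncertain.

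The OAS enzymes make the 2′-5′ oligoadenylates that activate RNase L. In F4/80lo Mϕ 5 of 6 were lower in CIII and in F4/80hi Mϕ all 5 tested, none with an unadjusted p under 0.05, while 45.9% and 53.5% of all genes were higher. Within number 1 alone 4 of 6 and 5 of 5 were higher in CIII, and within number 3 all 6 and all 5 were lower. Oasl1, a catalytically inactive OAS-like protein known to restrain Irf7 translation, was at 20.9, 34.7 and 9.99 in VEH and 6.38, 18.3 and 0 in CIII F4/80lo Mϕ. Each CIII library lay below the VEH library of its number, and the log2 fold change was -1.97 ± 1.01 (limma unadjusted p = 0.0752). Leaving out 1 library moved it to between -2.91 (without CIII library 2) and -0.78 (without CIII library 3). Blocking by number, limma gave an unadjusted p of 0.0164 and an adjusted p of 0.682. Oasl1 in F4/80hi Mϕ was at 14.6, 5.23 and 11.5 in VEH and 15.2, 4.81 and 0.547 in CIII, alike in numbers 1 and 2 and lower in number 3. Oas3 was at 8.15, 21.8 and 26.3 in VEH and 17.7, 2.28 and 13.3 in CIII F4/80lo Mϕ and overlapped between the treatments. Oas1a was at 9.31, 3.92 and 10.5 in VEH and 9.39, 0 and 1.64 in CIII F4/80hi Mϕ (log2 fold change -1.47 ± 0.98, limma unadjusted p = 0.166, and -2.36 to -0.67 on the log2 scale with 1 library left out). It shares 56.1% of its 3′-end words with Oas1g, and Oas1g 30.2% of its own with Oas1a, so the 2 cannot be told apart cleanly. Oasl2 and Oas2 were the most abundant of the family, and both had their highest value in VEH library 3, with 233 and 214 normalized counts of Oasl2 in F4/80lo and F4/80hi Mϕ beside 9.31 to 70.2 in the other libraries.

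Bst2 (ENSMUSG00000046718, chr8:71534255-71537456), or tetherin, which holds budding virus at the cell surface, had the highest mean level of the 38 genes over the 12 libraries (Parp14 was higher within F4/80lo Mϕ) and the smallest unadjusted p. In F4/80hi Mϕ it was at 417, 405 and 557 in VEH and 228, 255 and 213 in CIII, with all 3 CIII libraries below all 3 VEH libraries. The means were 459.7 ± 84.1 in VEH and 232 ± 21.2 in CIII (SD, n = 3), and the log2 fold change was -0.97 ± 0.31 (limma, 95% interval -1.68 to -0.27, unadjusted p = 0.0121, adjusted p = 0.992). It was lower in CIII in 3 of 3 numbers, by -0.87, -0.67 and -1.38 on the log2 scale. The exact permutation test gave p = 0.1, the smallest that 3 against 3 libraries allow (two-sided). Blocking by number, its adjusted p was 0.194 (limma), and with numbers 1 and 2 alone the log2 fold change was -0.77. Giving every library an equal total shifted the F4/80hi median over all genes from 0.05 to 0.15, and left Bst2 at -0.87. Such a lack of overlap, with CIII below VEH, was found for 5.76% of all genes, and among the interferon genes for Bst2 alone. In F4/80lo Mϕ Bst2 was at 304, 232 and 183 in VEH and 309, 255.9 and 148 in CIII, with a log2 fold change of -0.05 ± 0.38 that turned to 0.03 when libraries were rescaled to the same total.

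Whether CIII acted on Bst2 to another extent in the 2 subpopulations was tested over the 12 libraries. The log2 fold change of F4/80lo minus that of F4/80hi Mϕ was 0.93 ± 0.47 (SE, limma unadjusted p = 0.068, adjusted p = 0.9993, interval -0.08 to 1.93), and with the block its unadjusted p was 0.0287. At an unadjusted p under 0.05 limma called 0 of the 35 interferon genes tested in both (1.71% of all genes). The difference for Ifit1 was -1.24 ± 1.17 (interval -3.74 to 1.26). With the block, limma called Bst2 and Herc6 (-1.35, unadjusted p = 0.0229), neither after adjustment, beside 5.52% of all genes in the blocked fit.

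**Figure D4:**
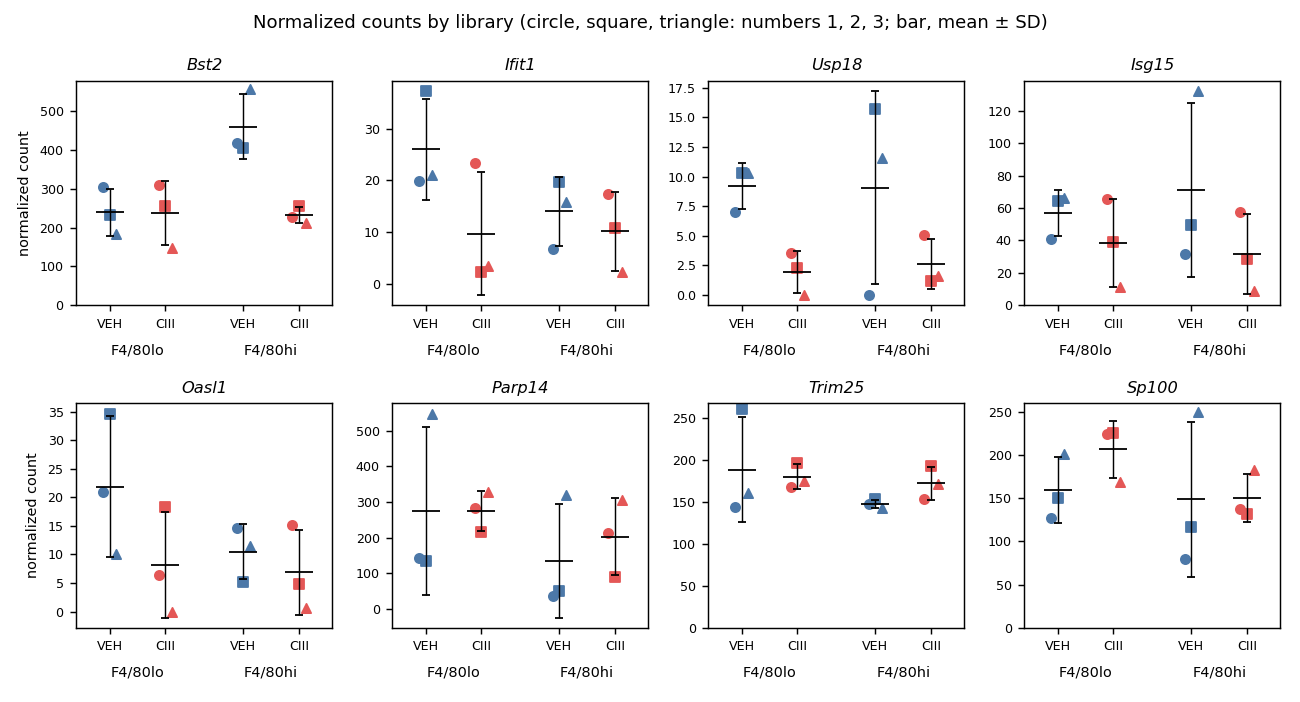
Normalized counts (y axis, starting at or below 0) of 8 interferon stimulated genes in VEH (blue) and CIII (red) libraries of F4/80lo and F4/80hi Mϕ, with circles, squares and triangles for replicate numbers 1, 2 and 3 and black bars for mean ± SD (n = 3). Bst2 in F4/80hi Mϕ has its CIII libraries at 213 to 255 under VEH libraries at 405 to 557, while Parp14 and Isg15 have their highest point in VEH library 3.

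The other abundant antiviral effectors, Parp14, Trim30a and Sp100, had overlapping VEH and CIII libraries in both subpopulations. Parp14, a mono-ADP-ribosyltransferase, was at 144, 136 and 548 in VEH and 284, 215 and 327 in CIII F4/80lo Mϕ and at 35.9, 50.9 and 319 in VEH and 214, 90.1 and 305 in CIII F4/80hi Mϕ. In both, VEH libraries 1 and 2 were the lowest of the 6 and VEH library 3 was the highest. The log2 fold change in F4/80hi Mϕ was 1.10 ± 0.78 (limma unadjusted p = 0.193), 0.0236 with the block, and 2.05 without VEH library 3. Trim30a, an E3 ligase that limits Toll-like receptor signaling, was at 178, 96.3 and 433 in VEH and 222, 178 and 268 in CIII F4/80lo Mϕ and 127.6, 119 and 290.3 in VEH and 269, 113 and 186 in CIII F4/80hi Mϕ. Sp100, a component of nuclear PML bodies, was at 127, 150.2 and 201.2 in VEH and 225, 226 and 169 in CIII F4/80lo Mϕ (log2 fold change 0.39 ± 0.34, limma unadjusted p = 0.277) and 79.8, 116 and 251 in VEH and 137, 132 and 183 in CIII F4/80hi Mϕ.

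Of the remaining effectors, Mx2 and Cmpk2 were scarce. Mx2, a dynamin-like GTPase against viruses, was at 4.65, 15.4 and 19.3 in VEH and 0.709, 0 and 14.4 in CIII F4/80lo Mϕ, lower in CIII in 3 of 3 numbers but at 14.4 in CIII library 3, within the VEH range. Its log2 fold change was -2.05 ± 1.09 (limma unadjusted p = 0.0858, and 0.0369 with the block, where the adjusted p was 0.709), and it ran from -3.24 to -1.27 with 1 library left out. Cmpk2, a mitochondrial nucleotide kinase next to Rsad2 in the genome, was at 0, 1.28 and 13.99 in VEH and 11.3, 4.57 and 13.3 in CIII F4/80lo Mϕ. It was near 0 in VEH libraries 1 and 2 and alike in both libraries numbered 3. Rsad2, or viperin, which makes a chain-terminating nucleotide, was at 14.6, 13.1 and 51.4 in VEH and 18.8, 10.8 and 15.3 in CIII F4/80hi Mϕ, where VEH library 3 alone stood above the rest. Ifi44 ranged from 3.99 to 147 normalized counts in F4/80hi Mϕ and was lowest in VEH library 1 and highest in VEH library 3. Mx1, Rtp4, Xaf1, Isg20, Ifi35, Tor3a and Phf11d, the last sharing 22.5% of its 3′-end words with other genes, had log2 fold changes between -0.50 and 0.76 in both subpopulations, none with an unadjusted p under 0.05.

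In the ISG15 system, Isg15 is the ubiquitin-like modifier, Herc6 and Trim25 are ligases, and Usp18 removes the modifier and blocks IFNAR2. Usp18 (ENSMUSG00000030107, chr6:121245906-121270917) was at 6.98, 10.3 and 10.3 in VEH and 3.55, 2.28 and 0 in CIII F4/80lo Mϕ, with 6, 8 and 31 reads in VEH and 5, 1 and 0 in CIII. All CIII values lay below all VEH values, as for 4.92% of all genes, and the log2 fold change was -2.03 ± 0.91 (limma unadjusted p = 0.0469, adjusted p = 0.9996, exact permutation p = 0.1). Usp18 passed at an unadjusted p under 0.05 without CIII library 1 or 2, but not without any of the other 4 libraries, nor with numbers 1 and 2 alone (-1.30, limma unadjusted p = 0.221). Usp18 in F4/80hi Mϕ was at 0, 15.7 and 11.5 in VEH and 5.05, 1.202 and 1.64 in CIII, and the groups overlapped through VEH library 1.

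Isg15 itself was at 40.7, 64.2 and 66.3 in VEH and 65.3, 38.8 and 11.1 in CIII F4/80lo Mϕ and 31.9, 49.6 and 132 in VEH and 57.8, 28.8 and 8.75 in CIII F4/80hi Mϕ. CIII library 3 was the lowest of the 6 in both, and CIII library 1 lay among the VEH libraries. The log2 fold changes were -0.84 ± 0.59 and -1.23 ± 0.72 (limma unadjusted p = 0.181 and 0.121). Leaving out 1 library gave -1.37 to -0.14 in F4/80lo Mϕ and -1.83 to -0.53 among F4/80hi libraries. In both cases the value was lowest without CIII library 1 and nearest 0 without CIII library 3. With numbers 1 and 2 alone the F4/80lo value was -0.02 and the F4/80hi value turned to 0.037. CIII library 3 was the lowest F4/80lo library for 7 interferon genes (15% of all genes), namely Bst2, Isg15, Isg20, Mx1, Oas1a, Oasl1 and Usp18. Herc6 was at 15.96, 14.4 and 106 in VEH and 64.3, 39.7 and 101 in CIII F4/80hi Mϕ, with VEH libraries 1 and 2 below the other 4 (log2 fold change 1.09 ± 0.73, limma unadjusted p = 0.169, 0.022 with the block, and 0.602 to 2.001 on the log2 scale with 1 library left out). Trim25, which also ubiquitinates the sensor RIG-I, was at 144, 261 and 161 in VEH and 168, 196 and 175 in CIII F4/80lo and 148, 153 and 143 in VEH and 153, 192 and 172 in CIII F4/80hi Mϕ. In the latter all CIII values lay above all VEH values, as for 4.73% of all genes, by a log2 fold change of 0.22 ± 0.30 (limma unadjusted p = 0.485).

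The sensors of nucleic acid showed the change with replicate number in every member. All 6 were higher in CIII within number 1 and lower within number 3, in both subpopulations. Zbp1, which binds Z-form nucleic acid and can start necroptosis, was at 46.5, 35.9 and 212 in VEH and 143, 139 and 79.6 in CIII F4/80lo Mϕ, where CIII libraries 1 and 2 were above VEH libraries 1 and 2 and VEH library 3 above all. Its log2 differences within numbers 1, 2 and 3 were 1.59, 1.93 and -1.40, and 3.05, -0.06 and -1.85 in F4/80hi Mϕ. Ddx58, which encodes RIG-I, was at 21.3, 18.3 and 51.4 in VEH and 51.3, 52.9 and 43.2 in CIII F4/80hi Mϕ, with VEH libraries 1 and 2 lowest. Its log2 fold change was 0.82 ± 0.46 (limma unadjusted p = 0.107), and 0.55 to 1.27 with 1 library left out. Dhx58, or LGP2, was at 0, 13.1 and 31.4 in VEH and 27.4, 8.41 and 16.96 in CIII F4/80hi Mϕ, with 0 reads in VEH library 1. Ifi204, a DNA-binding protein, spanned 9.14 to 268 normalized counts in F4/80hi Mϕ, with VEH library 2 lowest and VEH library 3 highest. Ifih1 (MDA5) and Ddx60 were highest in VEH library 3 in both subpopulations.

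Of the transcription factors, Irf9 differed least between libraries, at 130.3, 113 and 123 in VEH and 149.7, 183 and 130.4 in CIII F4/80lo Mϕ. There all CIII values lay above all VEH values, as for 3.82% of all genes (log2 fold change 0.32 ± 0.33, limma unadjusted p = 0.342). Irf9 was the only interferon gene higher in CIII in 3 of 3 numbers in F4/80lo Mϕ (13.1% of all genes), whereas Mx2, Oas1a, Oasl1 and Usp18 were lower in 3 of 3, 4 genes beside 15.7% of all genes. Stat2 was at 53.5, 47.5 and 219.5 in VEH and 109.95, 63.97 and 128.2 in CIII F4/80lo Mϕ, with the same order of libraries as Parp14 at both ends. Irf7, the factor that amplifies IFN-α production, was at 13.96, 61.6 and 119 in VEH and 49.7, 68.5 and 23.2 in CIII F4/80lo and 11.97, 33.97 and 88.04 in VEH and 46.9, 45.7 and 24.6 in CIII F4/80hi Mϕ, lowest in VEH library 1 and highest in VEH library 3 in both.

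The genes upstream gave no ligand. All 17 listed type I interferon genes, Ifnb1 and the IFN-α genes among them, had 0 reads in the 12 libraries, which allows up to 0.885 RPM in the deepest library and 7.03 in the shallowest. The receptor chains were measured. Ifnar1 was at 30.3, 26.96 and 205 in VEH and 29.8, 25.1 and 72.96 in CIII F4/80lo Mϕ and Ifnar2 at 135, 110.4 and 269.8 in VEH and 194, 142 and 210.04 in CIII, highest in VEH library 3 in each case. The F4/80hi values were 10.6, 5.23 and 82.8 in VEH and 15.2, 30.04 and 51.4 in CIII for Ifnar1, again highest in VEH library 3, and 133, 129 and 213 in VEH and 164, 174 and 242 in CIII for Ifnar2, highest in CIII library 3. Both genes are named here with their values known. Of the 47 genes of interferon production and signaling, 29 were tested in each subpopulation. In F4/80lo Mϕ 25 were higher in CIII and 4 lower (median 0.31), beside 45.9% of all genes higher, and 2 were higher with an unadjusted p under 0.05, beside 1.08% of all genes. Tmem173 (STING) was at 62.8, 71.9 and 68.3 in VEH and 127.7, 103 and 158 in CIII. All its CIII values lay above all VEH values, as for 3.82% of all genes. The log2 fold change was 0.91 ± 0.34 (limma unadjusted p = 0.0225, adjusted p = 0.9996). Tlr3, the sensor of double-stranded RNA, was at 2.33, 1.28 and 6.99 in VEH and 10.6, 20.6 and 11.1 in CIII (1.88 ± 0.78, limma unadjusted p = 0.0338). Irf1 was at 255.99, 118 and 759.8 in VEH and 1136, 395 and 832 in CIII (1.34 ± 0.62).

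Of the same genes in F4/80hi Mϕ, 19 were higher and 10 lower (median 0.30), beside 53.5% of all genes higher, and 1 was higher with an unadjusted p under 0.05, beside 1.29%. This was Tlr4, the receptor of endotoxin, at 26.6, 32.7 and 61.8 in VEH and 117, 58.9 and 91.9 in CIII (log2 fold change 1.16 ± 0.44, limma unadjusted p = 0.0259, adjusted p = 0.992). The receptor kinase Tyk2 was at 35.9, 47.03 and 78.6 in VEH and 70.7, 74.5 and 131 in CIII, with overlapping groups. Jak1 was at 283, 366 and 357 in VEH and 448, 434 and 609 in CIII (log2 fold change 0.56 ± 0.32, limma unadjusted p = 0.119). Every CIII library lay above every VEH library, as for 4.73% of all genes.

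The genes best known for IFN-γ lay mostly above VEH in CIII. Of 27 listed, 19 were tested, and 16 were higher and 3 lower in F4/80lo Mϕ (median 1.06) and 17 higher and 2 lower in F4/80hi Mϕ (median 0.75), beside 45.9% and 53.5% of all genes higher. As higher at an unadjusted p under 0.05, limma called 2 and 1 of them (1.08% and 1.29% of all genes), and 0 after adjustment. Ifngr1, a chain of the IFN-γ receptor, was at 521, 438 and 422 in VEH and 810.1, 1110 and 983 in CIII F4/80lo Mϕ and 312, 206 and 449 in VEH and 506, 635 and 856 in CIII F4/80hi Mϕ, above VEH in every CIII library of both. The log2 fold changes were 1.06 ± 0.34 and 1.08 ± 0.39 (limma unadjusted p = 0.00875 and 0.0226). The GTPases Gbp3 and Igtp act on vacuoles of intracellular microbes. Gbp3 was at 86.1, 55.2 and 234 in VEH and 331, 135 and 308 in CIII F4/80lo Mϕ, and Igtp at 32.6, 15.4 and 149.6 in VEH and 300.1, 41.1 and 282 in CIII. Ciita, which drives MHC class II transcription, was at 1.33, 0 and 13.6 in VEH and 14.4, 1.202 and 106 in CIII F4/80hi Mϕ. These list counts share their libraries with those of the type I targets and the lists were not tested against each other.

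The IFN-γ genes also followed the replicate number, with medians of 1.93, 1.06 and -0.21 within numbers 1, 2 and 3 of F4/80lo Mϕ and 2.53, 0 and -0.76 within those of F4/80hi Mϕ. Summed, they were at 993, 782 and 2836 in VEH and 3471, 1648 and 3984 in CIII F4/80lo libraries and 721, 672 and 2710 in VEH and 2890, 1307 and 2937 in CIII F4/80hi libraries, in RPM. CIII library 3 held the highest IFN-γ sum in both subpopulations, although 14 of the 19 tested genes were lower in CIII than in VEH within number 3 in each, so that sum and the count of genes differ in direction. Among the abundant genes, Ifngr1 was higher in CIII library 3 than in VEH library 3.

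The level of the type I targets was compared between the subpopulations in RPM without a test, because the tables were normalized separately. The mean was higher in F4/80lo Mϕ for 28 of 37 genes, beside 6291 of all 11120 genes. The median log2 ratio was 0.33 (0.08 over all 11120 genes). In each of the 6 pairs of libraries with the same treatment and number the summed level was higher in F4/80lo, although no pairing of mice is stated. Gene by gene, 4 were higher in F4/80lo in all 6 pairs (7.2% of all genes) and 0 were higher in F4/80hi Mϕ (4.43%). With TMM scaling, edgeR's trimmed-mean factors, it was 3 and 0, beside 634 and 594 of all 11120 genes, where it had been 801 and 493. The 4 genes before TMM scaling were Ifi44, Oas1a, Parp14 and Stat2. Oas1a was at 22.7, 18.4 and 14.8 in VEH and 20.8, 14.1 and 11.6 in CIII F4/80lo Mϕ and at 9.66, 4.34 and 9.52 in VEH and 10.4, 0 and 1.72 in CIII F4/80hi Mϕ, in RPM, without overlap, as for 0.585% of all genes. With TMM scaling of the libraries 0 interferon genes lay without overlap. Bst2 lay the other way in 5 of 6 pairs, at 312, 255.6 and 162 in VEH and 334, 263 and 155 in CIII F4/80lo Mϕ and 434, 448 and 505 in VEH and 252, 287 and 223 in CIII F4/80hi Mϕ. In the CIII libraries its F4/80hi levels lay within the F4/80lo range. With numbers 1 and 2 alone, which leaves out the F4/80hi libraries low in resident markers and Adgre1, 12 of 37 genes (32.4%) were higher in F4/80lo in all 4 pairs, beside 15.2% of all genes, and the median log2 ratio was 0.47.

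**Figure D5:**
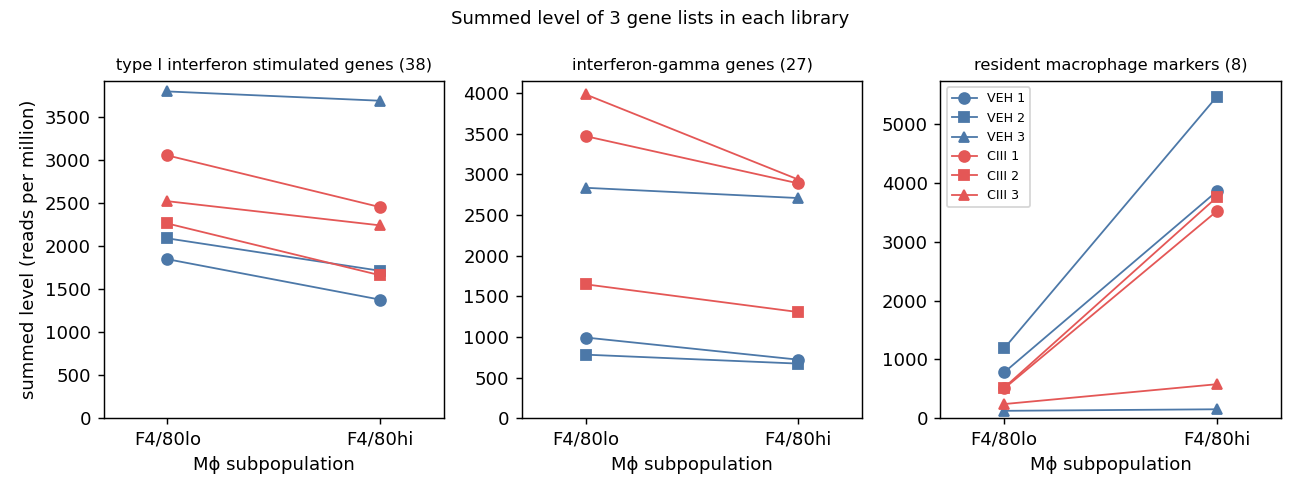
Summed level in RPM (y axes, from 0) of 38 type I interferon stimulated genes (left), 27 IFN-γ genes (middle) and 8 resident Mϕ markers (right) in F4/80lo and F4/80hi libraries (x axis), with a line joining libraries of the same treatment (blue VEH, red CIII) and replicate number (circle, square, triangle for 1, 2, 3). VEH 3 has the highest type I sum in both subpopulations, at 3800 and 3692, and the 2 F4/80hi libraries numbered 3 have resident markers at 152 and 578.

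By abundance over the 12 libraries the order was Bst2 (303 RPM), Parp14 (225), Trim30a (210.3), Trim25 (180.1) and Sp100 (171). Within F4/80lo Mϕ Parp14 came first (276) before Bst2 (247), and within F4/80hi Mϕ Trim30a (191) came before Parp14 (173). Each library counts 1 end per molecule, so these levels need no division by length. The libraries of each of these overlapped with those of its neighbors in this order. At the other end, Usp18 (5.86), Ifit3 (3.81), Ifit2 (3.64), Oas1g (2.74) and Ifit3b (0.292) lay near the 3-read limit of the shallow libraries, where single reads decide a fold change.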

How the data were processed

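Sorted F4/80lo and F4/80hi Mϕ were profiled with a 3′ mRNA kit carrying unique molecular identifiers. According to the study's methods, reads were trimmed with Bbduk, aligned to GRCm38 with STAR, collapsed by identifier and counted per gene with HTSeq-count. The deposited signal values are normalized counts, for which the authors used DESeq2 size factors within each subpopulation. All values (100%) were within 0.1 of a whole number of reads once divided by the step of 1 read, and these reads gave the depth (426624 to 3389448 reads per library) and the reads per 1000000 reads (RPM).

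Symbols and GRCm38 coordinates came from GENCODE M21 (47224 of 47643 identifiers), and promoters from RefSeq. Tested were genes averaging 3 or more normalized counts over the 6 libraries of a subpopulation, with limma 3.58.1 in R 4.3.3 on log2 of the normalized count plus 1, two-sided, with a mean-variance trend and Benjamini-Hochberg adjustment over all genes tested. The difference between subpopulations used all 12 libraries. Alternatives used edgeR 4.0.16 and DESeq2 1.42.0 on the recovered reads. Each fit was first tested on simulated data. Figures were drawn with matplotlib 3.10.9.

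The genes and lists were chosen with earlier results of these data known. Those described singly were the 10 genes with the smallest p in each subpopulation, the 5 with the highest level, and 3 genes of each of the lists of interferon signaling and of IFN-γ genes. Others were named after their values were seen. Same-numbered VEH and CIII libraries deviated alike from their group means, with correlations across genes of 0.121, 0.238 and 0.504 for numbers 1 to 3 of F4/80lo Mϕ and of 0.216, 0.412 and 0.639 for F4/80hi Mϕ, so the number was also fitted as a block. VEH library 1 correlated more with CIII library 2 (0.171 and 0.285 in the same order) than with CIII library 1. Protein sequences were not used here.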

Additional observations from a re-analysis of the deposited data

How the results depend on the processing

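The limits were the 3 libraries per group and the depth, since 1 read is worth 2.28 normalized counts in the shallowest library. No interferon stimulated gene had an adjusted p under 0.05 in any fit. Over all genes in F4/80lo Mϕ, 0 genes passed that threshold by limma, 2 with limma array weights, 2 by DESeq2 and 4 by edgeR with the replicate number as a block. Of the results about counts, medians and tests, 192 values under an alternative stayed within 1.5 times the count or, for medians, within 1 SD between replicate numbers, and 38 moved. That SD is wide, so medians that turned in sign are among the 192. Of the values for single genes, 465 kept their direction and call and 28 reversed. The cause of these changes was not tested, and the fits with numbers 1 and 2 alone were added after seeing the data.

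The number of interferon stimulated genes with an unadjusted p under 0.05 depended on the fit. In F4/80lo Mϕ, where it was 2, the replicate block gave 4 (6.89% of all genes), array weights 12 (11.5%), numbers 1 and 2 alone 5 (4.73%), edgeR and DESeq2 0, and edgeR with the block 2 (6.18%). The direction turned, from 0 higher and 2 lower to 10 higher and 2 lower with array weights and 4 higher and 1 lower with numbers 1 and 2 alone. A pseudocount of 0.5, no filter on low values, a mean of at least 10 normalized counts and libraries rescaled to the same total each gave 1. Leaving out 1 library at a time gave 0 to 8, with 0 without VEH 1 or VEH 2, 1 without CIII 3 and 8 without VEH 3. Among F4/80hi Mϕ, where it was 1, the block gave 3 by limma (11.3% of all genes) and by edgeR (10.05%), array weights 5 (7.83%) and numbers 1 and 2 alone 4 (6.97%). That 1 gene was lower, whereas 2 of the 3, 4 of the 5 and 3 of the 4 were higher. Leaving out 1 library gave 1 to 7, with 2 without VEH 1, 3 without CIII 1 and 7 without VEH 3. For the difference between the subpopulations, where it was 0, the block and array weights each gave 2 (5.52% and 4.92% of all genes), numbers 1 and 2 alone 1 (3.22%), and leaving out 1 library 0 to 3.

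The median log2 fold change turned from -0.13 and -0.15 in F4/80lo and F4/80hi Mϕ to 0.43 and 0.34 with array weights, and to 0.14 in the latter when a mean of 10 was required. It was -0.33 and -0.45 by edgeR and -0.21 and -0.45 by DESeq2. The median difference between the subpopulations was -0.02, -0.20 with numbers 1 and 2 alone, and -0.62 to 0.44 when 1 library was left out.

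The log2 fold change of some genes turned in direction, including -1.52 for Ifit2 and -0.90 for Oas3 in F4/80lo Mϕ and 1.13 for Dhx58 and -1.23 for Isg15 in F4/80hi Mϕ. For F4/80lo Mϕ, libraries rescaled to the same total gave 0.025 for Bst2 and 0.051 for Trim25, and array weights gave 0.039 for Trim25, 0.68 for Ifit2 and 0.28 for Oas3. Parp14 was at -0.037 by edgeR and -0.0086 by DESeq2, and Trim30a at -0.11 and -0.087. Bst2 was at 0.081 with numbers 1 and 2 alone. Leaving out 1 library gave -0.27 to 0.26 for Bst2, -0.054 to 0.95 for Parp14, -0.19 to 0.24 for Trim25 and -0.34 to 0.74 for Trim30a. For F4/80hi Mϕ, array weights gave 0.074 for Ifit1, and numbers 1 and 2 alone gave 0.23 for Ifit1, 0.037 for Isg15 and 0.044 for Rsad2. Leaving out 1 library gave -0.34 to 2.17 for Dhx58, -1.17 to 0.092 for Ifit1, -0.87 to 0.076 for Rsad2, -0.19 to 0.62 for Sp100 and -0.18 to 0.53 for Trim30a.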
